A study of Mus musculus with 4 samples.

Results

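The cells described here are the Ly6c2-high cells of the mouse fetal liver progenitor gate, labelled monocyte progenitors, and they numbered 513 of 9960 cells. A cell was taken when Ly6c2 made up at least 5 of every 10000 of its UMIs (unique molecular identifiers, counted transcripts), Cebpe made up under 4 per 10000, Camp, Ngp and Lcn2 together had under 5 UMIs, and Prg2 and Prg3 together had under 3 UMIs. The cells were thus chosen by measured values, the UMIs of Ly6c2, Cebpe, Camp, Ngp, Lcn2, Prg2 and Prg3, and the levels of these 7 genes are given as description only. Libraries A and B came from embryos labelled Gata2-77-/-, which lack both copies of the -77 enhancer upstream of Gata2, and the wild-type embryos gave libraries F and I. All 4 were C57Bl/6J fetal livers at E14.5, sorted as Lin-Sca-cKit+Cd34+ and run on the 10x Genomics Chromium platform. The design sets progenitors without that enhancer beside progenitors that have it. The letters come from the deposited grouping, which does not link them to the numbered samples. The design names 2 embryos per genotype, and the error below is the spread between 2 libraries. Members numbered 87 and 55 in the enhancer-deleted libraries A and B, and 256 and 115 in the wild-type libraries F and I.

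Monocytes and neutrophils arise from shared granulocyte and monocyte progenitors, which already make the serine proteases and peroxidase stored in primary (azurophil) granules. The transcription factors Irf8 and Klf4 are known to favour the monocyte path in mouse, and Cebpe is required for the later, granulocytic one, in which secondary granule proteins such as Camp, Ngp and Lcn2 appear. Ly6c2 encodes a GPI-anchored surface protein that marks classical monocytes and their committed progenitors in mouse. Gata2 is a transcription factor of stem and early progenitor cells, and its -77 enhancer is known to act in myeloid and erythroid progenitors.

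Depth differed between the genotypes. Members had a median of 7815 and 7372 UMIs in A and B, against 15716.5 and 20219 in F and I, and their summed UMIs were 673880 and 405948, against 3947931 and 2269244. At the smaller depth the Ly6c2 limit could be met by as few as 2 and 1 UMIs in A and B, against 3 and 4 in F and I. Over all cells the medians were 7492 and 7087 UMIs, against 12826.5 and 17437.5. No 2 cells had identical counts, and the files used here carry no cell barcodes, so barcodes shared between libraries could not be counted. In members, 1 cell of library I held 2306 Hbb-bs UMIs of 28775 beside 23 Ly6c2 and 146 Elane UMIs, and results are given with and without it. Xist, the transcript that silences an X chromosome in female cells, stood at 0 and 410 CPM in A and B and at 0.0249 and 492 CPM in F and I, so each genotype held 1 library with it and 1 without.

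The monocyte label was checked against its markers. CPM is a gene's UMIs per 1000000 UMIs of the 3624 measured genes, summed over the cells of a class in a library. Ly6c2 stood at 963 and 835 CPM in members of A and B and 1184 and 1087 CPM in members of F and I, and at 23.4 to 123 CPM in all other cells, which the rule fixes. F13a1, the coagulation factor XIII subunit made by monocytes, stood at 258 and 310 CPM in members of A and B and at 292 and 301 CPM in those of F and I. In all other cells it stood at 85.9 to 108 CPM. Csf1r-positive Ly6c2-low cells had Csf1r of at least 3 per 10000, Ly6c2 under its limit and the same Cebpe, Camp and Prg limits. F13a1 stood at 239 and 224 CPM in those of A and B and 274 and 267 CPM in those of F and I. That is near the member level, so F13a1 does not set members apart from that class. Klf4, the monocyte transcription factor, reached 28.2 and 34.5 CPM in members of A and B and 25.6 and 33.9 CPM in those of F and I, against 4.67 to 7.86 CPM in the other cells. Ctsc, the protease that activates granule serine proteases, stood at 214 to 360 CPM in members and 60.8 to 100.1 CPM in the others. In Csf1r-positive Ly6c2-low cells Ctsc stood at 161 and 134 CPM in A and B and 323 and 348 CPM in F and I. In F and I it thus does not set members apart from that class. Genes at 50 CPM or more, 2523 in all, were ranked by the smallest of the 4 within-library ratios of members to other cells. Each ratio was taken with 5 CPM added to both levels. Ly6c2 came 1st, Ctsc 4th, Elane 6th and F13a1 13th, while Klf4 was too low to rank.

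**Figure D1:**
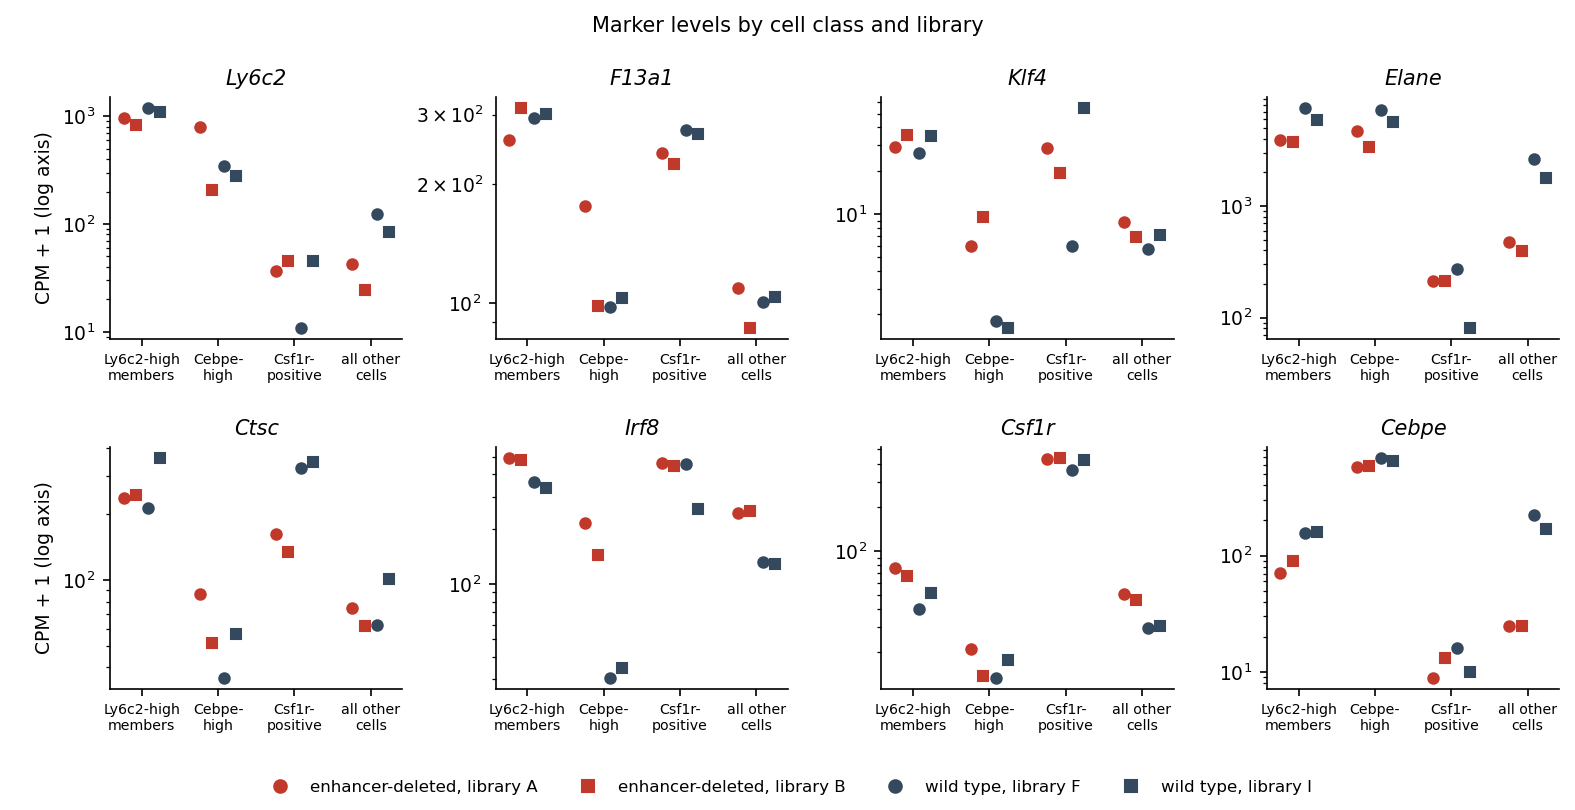
Levels of 8 genes (CPM of the panel plus 1, log axes) in Ly6c2-high members, Cebpe-high cells, Csf1r-positive Ly6c2-low cells and all other cells, with 1 point per library and no error bar. Irf8, F13a1 and Klf4 stand higher in members than in Cebpe-high cells in every library, Elane is at a like level in both, and Csf1r is lower in members than in Csf1r-positive cells, which its threshold fixes.

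The other genes that led members over the rest of the series were a mix of secreted, granule and membrane products. The 15 with the highest ratio were Ly6c2, Slpi (a protease inhibitor), Nrg1, Ctsc, C1galt1c1, Elane, Hp (haptoglobin), Cybb (the phagocyte oxidase subunit), Mcemp1, Mgst2, Napsa, Clec5a, F13a1, Mgst1 and Tfec. Cybb stood at 92.0 and 103 CPM in members of A and B and 59.8 and 78.4 CPM in those of F and I, against 18.2 to 25.6 CPM in other cells. In Csf1r-positive Ly6c2-low cells it stood at 87.5 and 69.1 CPM in A and B and 99.5 and 152 CPM in F and I. Mgst1 stood at 202 and 131 CPM in members of A and B and 223 and 230 CPM in those of F and I. In Cebpe-high cells Mgst1 was at 216 and 140 against 232 and 204 CPM, so neither gene was particular to members. Nrg1 stood above both classes in every library. Among the 10 genes lowest against the rest were Ctla2a, Adgrg1, Ifitm1, Cd24a, Sox4, Hmga2, Tspan13, Egfl7 and Car2, a set that includes genes of stem and multipotent cells. Sox4 stood at 7.05 to 9.88 CPM in members and 65.3 to 99.5 CPM in the others. Kit, the receptor used in the sort, stood at 25.2 and 19.7 CPM in members of A and B and 28.4 and 29.5 CPM in those of F and I, and Cd34 at 154 and 145 against 74.7 and 104 CPM.

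The match to the label was partial. Irf8 stood at 490 and 478 CPM in members of A and B and 362 and 334 CPM in those of F and I. With 5 CPM added to both levels, that was 1.88 to 2.71 times its level in the other cells. Csf1r, the M-CSF receptor, stood at 75.7 and 66.5 CPM in members of A and B and 38.5 and 50.7 CPM in those of F and I. With the same 5 CPM added, that was 1.30 to 1.62 times its level in the other cells. Primary granule transcripts were abundant: the 13 measured genes of that list summed to 19754 and 19581 CPM in members of A and B and 28881 and 27523 CPM in those of F and I. Cebpe-high cells, 848 cells with Cebpe at or above the limit of the rule and the same limits on Camp and Prg genes, summed to 24099.9 and 21792 CPM in A and B and 30916 and 28695 CPM in F and I. The members are therefore called Ly6c2-high cells below.

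Promoter sequences of the markers Ly6c2, F13a1 and Elane, and of Prtn3, the granule gene beside Elane, are shown because PU.1 (Spi1), the factor that both monocytes and granulocytes require, is known to bind purine-rich stretches with the core GAGGAA. Each window runs from 250 bases before to 50 bases after the start of transcription, 5′ to 3′ on the gene's strand, from RefSeq on GRCm38.p6, with GAGGAA in capitals and everything else in lower case. The windows are Ly6c2 at chr15:75111922-75112221 and F13a1 at chr13:37050195-37050494, both on the minus strand and each the first of 2 listed starts, and Prtn3 at chr10:79879417-79879716 and Elane at chr10:79886062-79886361, neighbours on the plus strand.
Ly6c2: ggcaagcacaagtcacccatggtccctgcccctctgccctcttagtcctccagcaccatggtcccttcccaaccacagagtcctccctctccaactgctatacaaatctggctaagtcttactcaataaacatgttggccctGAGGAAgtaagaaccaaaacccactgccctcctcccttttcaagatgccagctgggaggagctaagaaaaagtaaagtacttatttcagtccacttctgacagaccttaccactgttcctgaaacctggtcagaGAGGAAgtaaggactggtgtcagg
F13a1: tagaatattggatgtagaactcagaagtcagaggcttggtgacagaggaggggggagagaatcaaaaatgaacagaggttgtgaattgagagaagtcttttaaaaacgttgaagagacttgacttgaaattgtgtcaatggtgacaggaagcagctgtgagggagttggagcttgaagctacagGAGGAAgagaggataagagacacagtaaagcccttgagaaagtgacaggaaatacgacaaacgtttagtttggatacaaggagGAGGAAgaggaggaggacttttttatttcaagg
Prtn3: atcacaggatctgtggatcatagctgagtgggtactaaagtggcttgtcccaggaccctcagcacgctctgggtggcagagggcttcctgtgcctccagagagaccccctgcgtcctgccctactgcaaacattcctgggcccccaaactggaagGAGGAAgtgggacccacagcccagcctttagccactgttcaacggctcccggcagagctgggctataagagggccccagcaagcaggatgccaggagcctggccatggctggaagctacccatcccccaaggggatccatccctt
Elane: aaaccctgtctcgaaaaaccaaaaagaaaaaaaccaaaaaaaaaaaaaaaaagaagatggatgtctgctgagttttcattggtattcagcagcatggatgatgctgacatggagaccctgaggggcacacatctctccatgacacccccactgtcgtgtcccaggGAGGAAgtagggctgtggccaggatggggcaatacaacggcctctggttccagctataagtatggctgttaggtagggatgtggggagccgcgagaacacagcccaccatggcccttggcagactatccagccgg
GAGGAA occurred 2 times in the Ly6c2 window and 2 times in the F13a1 window, and 1 time each in those of Prtn3 and Elane. The Mpo and Ctsg windows also held it, the Ctsc window held it on the other strand only, and the Klf4 window did not hold it on either strand. On either strand, 28.3% of 32851 promoter windows held it. The GATA-type letters AGATAA, on either strand, were in none of these 8 windows and in 11.2% of all windows. Ly6c2 has a near-identical neighbour, Ly6c1, that is not in the measured panel, so reads of the 2 genes may not have been told apart.

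Within a library the Ly6c2-high cells were not uniform. S100a8 encodes a calprotectin subunit of neutrophils and monocytes, and its median was 3.1 and 1.5 UMIs per 10000 in A and B and 15.2 and 18.3 in F and I, while the highest cell held 295 and 88.1 per 10000 in A and B and 496 and 426 in F and I. Elane, neutrophil elastase, had medians of 33.8 and 25.7 per 10000 in A and B and 70.0 and 50.7 in F and I, with the 10th and 90th percentiles at 7.2 and 73.5 in A and at 24.1 and 141.9 in F. Prtn3, proteinase 3, varied less, with medians of 60.1 and 55.0 in A and B and 76.6 and 71.6 in F and I and no member under 9.5.

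Some granule genes varied together across cells. After each cell was thinned to 4346 UMIs, which left 80, 48, 255 and 115 members in A, B, F and I, Spearman's rho of Elane with Ctsg (cathepsin G) ran from 0.50 to 0.76 over the 4 libraries and that with Prtn3 from 0.44 to 0.55, while that with Mpo ran from 0.18 to 0.31. S100a8 followed Stfa1, a stefin of myeloid cells, with rho from 0.54 to 0.71. Elane and Irf8 ran in opposite directions with rho from -0.37 to -0.20. Ly6c2, whose low values the rule removes, had rho from -0.12 to 0.17 with F13a1, from -0.08 to 0.13 with Irf8 and from 0.0041 to 0.26 with Elane. These are descriptions over cells that share a library and a fixed depth, and counts per cell are sparse.

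The cells highest in Ly6c2, a gene of the rule, also held the most S100a8 among the Ly6c2 bands in each library. Members with Ly6c2 at 12 per 10000 or more had 4107 and 1963 CPM of S100a8 in A and B and 6184 and 6655 CPM in F and I, and those from 5 to under 8 per 10000 had 1502 and 810 CPM in A and B and 2219 and 2489 CPM in F and I. From 8 to under 12 per 10000, S100a8 stood at 935 and 1249 CPM in A and B and 2944 and 4220 CPM in F and I. In A it thus did not rise from band to band. The band of 12 and more held 23.0% and 16.4% of the members of A and B and 37.5% and 34.8% of those of F and I. That was only 20 and 9 cells in A and B, and 96 and 40 in F and I. Elane in that band was 4134 and 4648 CPM in A and B and 8937 and 7005 CPM in F and I. Irf8 in that band was 547 and 675 CPM in A and B and 395 and 338 CPM in F and I, so in each band the Irf8 level of both enhancer-deleted libraries was above that of both wild-type ones. Just inside the Ly6c2 limit (5 to under 6 per 10000) 76 cells held 258 CPM of F13a1 and 302 CPM of Irf8, pooled over libraries, and just outside it (4 to under 5, other limits met) 112 cells held 299 and 307 CPM. Just inside the Cebpe limit (3 to under 4 per 10000) 66 cells held 167 CPM of Irf8 and 8879 CPM of Elane, and just outside it (4 to under 5) 64 cells held 99.8 and 9056 CPM.

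Ly6c2-high cells made up a smaller part of the enhancer-deleted libraries. The share was 3.89% and 2.00% of cells in A and B and 8.42% and 5.93% in F and I. The means were 2.95% ± 1.34 in enhancer-deleted and 7.17% ± 1.75 in wild-type libraries (SD, n = 2 each), 2.43-fold lower, and the groups did not overlap. The exact two-sided permutation p was 0.333, the smallest that 2 libraries against 2 allow, so the design cannot pass 0.05. Exact 95% binomial intervals, which cover counting error only, were 3.13% to 4.78% and 1.51% to 2.60% in A and B and 7.45% to 9.46% and 4.92% to 7.08% in F and I. With the rule applied after every cell was thinned to 4346 UMIs, which leaves out 398 and 457 shallower cells of A and B and 111 and 29 of F and I, the shares were 3.59% and 1.84% in A and B and 7.30% and 4.98% in F and I. The limit on Cebpe bore on the size. With it set at under 2 per 10000, members were 3.49% and 1.60% of all cells of A and B and 5.10% and 3.56% of those of F and I. That was 1.70-fold lower in the enhancer-deleted mean, with A close to I. As a share of the cells under the Cebpe, Camp and Prg limits, members were 3.95% and 2.03% in A and B and 11.2% and 7.35% in F and I.

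**Figure D2:**
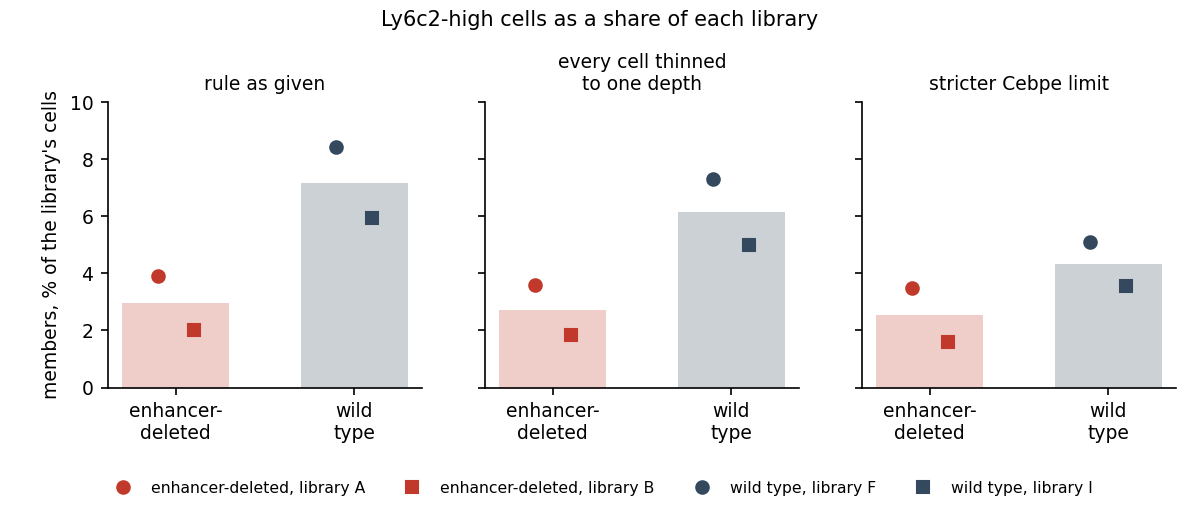
Ly6c2-high cells as a percentage of each library's cells, by the rule as given, after thinning each cell to 4346 UMIs, and with the Cebpe limit at 2 per 10000; points are libraries and bars are means of 2. The enhancer-deleted libraries sit at 3.89% and 2.00% by the rule as given and the wild-type ones at 8.42% and 5.93%, and with the stricter Cebpe limit library A (3.49%) is near library I (3.56%).

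Within Ly6c2-high cells, granule and granulocyte progenitor transcripts were lower and several monocyte receptor transcripts were higher in the enhancer-deleted libraries, but no gene passed the threshold. edgeR's quasi-likelihood test on UMIs summed over members called 0 of 3522 genes (0%), with a smallest adjusted p of 0.0553. At an unadjusted p under 0.05, 158 genes (4.49%) were higher and 191 (5.42%) lower, and the DESeq2 Wald test called 9 higher (0.256%) and 10 lower (0.284%). With edgeR, 18 genes passed higher (0.511%) and 19 lower (0.54%) without possible doublets, 26 higher (0.738%) and 35 lower (0.994%) with a term for Xist, and 5 higher (0.143%) and 8 lower (0.229%) with Cebpe under 2 per 10000. Leaving out the globin-rich cell alone, an alternative chosen after the data were seen, gave 12 calls, 5 higher (0.142%) and 7 lower (0.199%): Trem2, Ccr2, Id3, Ifitm3 and Lsp1 were higher, and Fcnb, Rgcc, Alas1, S100a8, Cd63, Gm5483 and the rule gene Cebpe were lower.

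The gene lists were chosen with earlier results of these data known, so the list counts here and below are description and not independent support. The primary granule list had 13 measured genes, all 13 with a negative log2 fold change. Of these, 11 were lower at an unadjusted p under 0.05 and 0 higher, with a median log2 fold change of -0.47, against -0.01 over all genes tested. For 11 of the 13 both enhancer-deleted libraries lay below both wild-type ones, as did 22% of all genes. Elane stood at 3881 and 3725 CPM in A and B and 7515 and 5851 CPM in F and I (log2 fold change -0.81, SE 0.17, edgeR adjusted p = 0.0816). Ctsg stood at 2727 and 2722 CPM in A and B and 4036 and 3650 CPM in F and I. Mpo, myeloperoxidase, stood at 1668 and 2040 CPM in A and B and 2349 and 2782 CPM in F and I. The gap was smaller for Prtn3, the neighbour of Elane, at 6065 and 5794 CPM in A and B and 7841 and 7533 CPM in F and I (log2 fold change -0.37, edgeR adjusted p = 0.467). Ctsc, a marker of the cells and the activator of these proteases, overlapped between the genotypes at 237 and 244 CPM in A and B and 214 and 360 CPM in F and I. Cd63, a granule membrane tetraspanin, stood at 277 and 259 CPM in A and B and 452 and 424 CPM in F and I (log2 fold change -0.70, SE 0.11, edgeR adjusted p = 0.0553).

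The median gap was larger in the granulocyte progenitor list. Of 15 genes tested, 13 were lower at an unadjusted p under 0.05 and 0 higher, with a median log2 fold change of -0.66; the list holds the rule gene Cebpe. S100a8 stood at 1888 and 1091 CPM in A and B and 3853 and 4203 CPM in F and I (log2 fold change -1.41, SE 0.23, edgeR adjusted p = 0.0553). Its partner S100a9 stood at 378 and 145 CPM in A and B and 889 and 517 CPM in F and I, with wide gaps inside each genotype. Fcnb, a ficolin of granulocyte progenitors, stood at 122 and 81.3 CPM in A and B and 298 and 243 CPM in F and I (log2 fold change -1.37, SE 0.20, edgeR adjusted p = 0.0553). Neither genotype overlapped the other for any of these 3 genes. Alas1, the first enzyme of heme synthesis outside the erythroid line, stood at 46.0 and 88.7 CPM in A and B and 155 and 152 CPM in F and I. Gfi1, a transcription factor of the granulocyte path, was near the limit of counting at 7.42 and 2.46 CPM in A and B and 16.5 and 11.5 CPM in F and I. Rgcc, a cell cycle regulator outside the lists, stood at 117 and 116 CPM in A and B and 247 and 213 CPM in F and I.

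**Figure D3:**
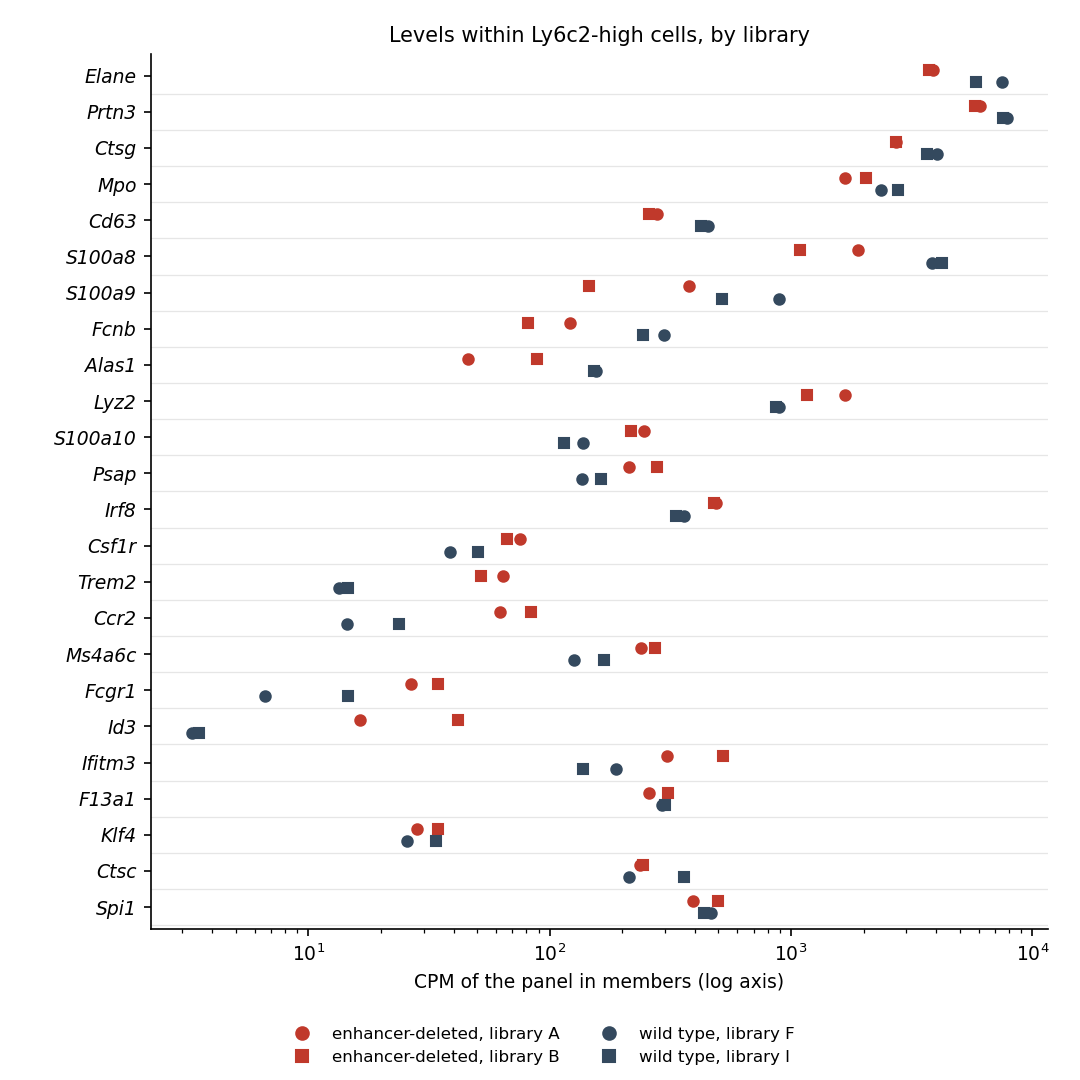
Levels of 24 genes within Ly6c2-high cells (CPM of the panel, log axis), with the 2 enhancer-deleted libraries drawn above the 2 wild-type ones for each gene. The granule and granulocyte genes from Elane to Alas1 lie lower in both enhancer-deleted libraries, those from Lyz2 to Ifitm3 lie higher, and F13a1, Klf4, Ctsc and Spi1 overlap.

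Monocyte surface genes leaned the other way, but not as a block. Of 19 tested, 10 were higher and 3 lower at an unadjusted p under 0.05, with a median log2 fold change of 0.57, and the rule gene Ly6c2 is among the 3. Both enhancer-deleted libraries lay above both wild-type ones for 11 of the 19, as they did for 18.7% of all genes. Trem2, a lipid-sensing receptor of macrophages, stood at 63.8 and 51.7 CPM in A and B and 13.4 and 14.54 CPM in F and I (log2 fold change 2.09, SE 0.26, edgeR adjusted p = 0.0553). Ccr2, the chemokine receptor by which monocytes leave the marrow, stood at 62.3 and 83.8 CPM in A and B and 14.4 and 23.8 CPM in F and I (log2 fold change 1.97, SE 0.29, edgeR adjusted p = 0.0553). Ms4a6c stood at 239 and 273 CPM in A and B and 126 and 168 CPM in F and I. The Fc receptor Fcgr1 stood at 26.7 and 34.5 CPM in A and B and 6.59 and 14.54 CPM in F and I, which rests on 18 and 14 UMIs in A and B and 26 and 33 in F and I. Against these, the lectin receptor Clec4a2 was lower, at 29.7 and 12.3 CPM in A and B and 64.3 and 70.5 CPM in F and I. The receptor Clec12a overlapped, at 375 and 372 CPM in A and B and 355 and 401 CPM in F and I.

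Among the transcription factors of the monocyte path, Irf8 was higher and Klf4 overlapped. Of 10 monocyte regulators tested, 3 were higher and 0 lower at an unadjusted p under 0.05. Irf8, at 490 and 478 CPM in A and B and 362 and 334 CPM in F and I, had a log2 fold change of 0.48 (SE 0.11, edgeR adjusted p = 0.104). Id3, an inhibitor of basic helix-loop-helix factors, stood at 16.3 and 41.9 CPM in A and B and 3.29 and 3.53 CPM in F and I (log2 fold change 2.94, SE 0.45, edgeR adjusted p = 0.0553). Spi1, at 391.8 and 500.1 CPM in A and B and 465 and 438 CPM in F and I, overlapped, as did Klf4 and Cebpa. Klf4 had a log2 fold change of 0.09 (SE 0.29), which turned to -0.10 without library F and to -0.15 with Cebpe under 2 per 10000, and F13a1 had -0.07 (SE 0.11), which turned to 0.03 without library A.

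Effector genes of monocytes were mixed. Of 31 tested, 9 were higher and 5 lower at an unadjusted p under 0.05, with a median log2 fold change of 0.18. Lyz2, lysozyme, stood at 1677 and 1163 CPM in A and B and 890 and 867 CPM in F and I. S100a10, an annexin partner, stood at 246 and 217 CPM in A and B and 138 and 115 CPM in F and I, and Psap, the lysosomal prosaposin, at 212 and 278 against 136 and 163 CPM. The lower genes were Hp (441 and 389 CPM in A and B and 617 and 675 CPM in F and I), Slpi, S100a11, Igsf6 and Ncf4. Hp is in the primary granule list as well.

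Of 6 interferon-related genes tested, 0 passed, and 3 were higher and 0 lower at an unadjusted p under 0.05, with a median log2 fold change of 0.92. Ifitm3, a membrane restriction factor, stood at 306 and 522 CPM in A and B and 187 and 138 CPM in F and I (edgeR adjusted p = 0.0607). Ifi203 stood at 16.3 and 46.8 CPM in A and B and 8.87 and 5.73 CPM in F and I, and Mndal, which overlapped, at 7.42 and 54.2 CPM in A and B and 9.12 and 4.41 CPM in F and I. For these last 2 the level in library B was several times that in library A. Ifitm1, at 40.1 and 78.8 CPM in A and B and 53.4 and 17.2 CPM in F and I, and Bst2, at 148 and 234 CPM in A and B and 149 and 138 CPM in F and I, also overlapped. Isg15 had 1.48 and 12.3 CPM in A and B and 3.80 and 0 CPM in F and I and was under the filter.

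Cell cycle and ribosomal genes showed no such lean. Of 29 S phase genes 0 were higher and 1 lower at an unadjusted p under 0.05, and of 29 G2/M genes and 25 ribosomal protein genes none were in either direction. List medians of the log2 fold change were 0.04, -0.03 and 0.03. Ccnd1, cyclin D1, stood at 38.6 and 49.3 CPM in A and B and 17.0 and 10.1 CPM in F and I, and Myc at 28.2 and 34.5 CPM in A and B and 45.3 and 45.8 CPM in F and I. Of 12 glycolysis genes 3 were lower, among them Gpi1 at 371 and 315 CPM in A and B and 497 and 554 CPM in F and I. Among cytokine receptors 3 were higher and 2 lower of 10 tested: Csf2ra, a subunit of the GM-CSF receptor, stood at 46.0 and 39.4 CPM in A and B and 66.9 and 81.5 CPM in F and I, and Csf1r was among those higher.

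**Figure D4:**
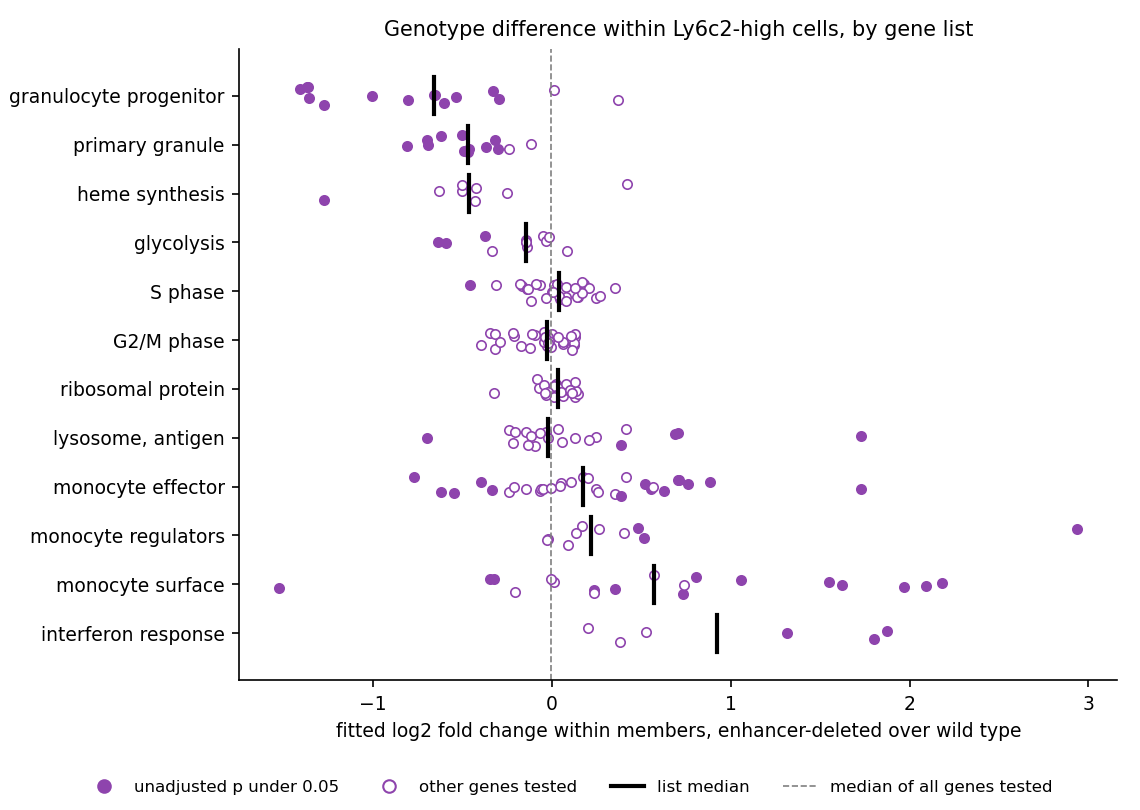
Fitted log2 fold change of each tested gene within Ly6c2-high cells, enhancer-deleted over wild type, by gene list; filled points have an unadjusted p under 0.05, black bars are list medians and the dashed line is the median of all genes tested (-0.01). The granulocyte progenitor and primary granule lists sit left of 0, the monocyte surface and interferon lists mostly right of it, and the S phase, G2/M and ribosomal lists around it.

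Cebpe, which the rule only bounds, also stood apart between the genotypes within members, and its part in the gaps above was not tested. Members held 69.7 and 88.7 CPM of Cebpe in A and B and 155 and 159 CPM in F and I. After thinning, 21.2% and 22.9% of members of A and B had a Cebpe UMI, against 52.9% and 50.4% of those of F and I; without thinning the shares were 41.4% and 38.2% in A and B and 81.2% and 82.6% in F and I. In Csf1r-positive Ly6c2-low cells, taken as a class that should lack Cebpe and also held under its limit, the thinned shares were 4.76% and 4.62% in A and B and 5.26% and 0% in F and I, at median depths of 5378 and 5284 UMIs in A and B and 9490 and 10579 in F and I. The 0% is 0 of 9 cells.

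A fit on the members with 0 Cebpe UMIs after thinning, an alternative chosen after the data were seen, used 63 and 37 cells in A and B and 120 and 57 in F and I. It split members on a gene of the rule and did not remove Cebpe, since 19 and 8 of these cells in A and B and 72 and 37 in F and I held a Cebpe UMI before thinning. In that fit, 5 genes passed higher (0.162% of 3080 tested) and 13 lower (0.422%). S100a8 stood at 1410 and 1275 CPM in A and B and 3752 and 3447 CPM in F and I, and was lower (log2 fold change -1.40, SE 0.15, edgeR adjusted p = 8.01e-17). Among all members its log2 fold change was much the same (-1.41, edgeR adjusted p = 0.0553). The small p-value of S100a8 in this fit thus does not come from a wider gap. For other genes the gap was wider or narrower than among all members. S100a9 had a log2 fold change of -2.18 (edgeR adjusted p = 4.32e-28) against -1.36 among all members, and Elane had -0.69 against -0.81. The small p-values of this fit are not read as stronger evidence. Elane, at 3641 and 3818 CPM in A and B and 6579 and 5522 CPM in F and I, was lower (log2 fold change -0.69, edgeR adjusted p = 0.00175), and so was Fcnb (log2 fold change -1.52, edgeR adjusted p = 8.16e-06). Ccr2 was higher, at 62.1 and 87.1 CPM in A and B and 17.3 and 28.3 CPM in F and I (log2 fold change 1.77, edgeR adjusted p = 0.0207), and was the 1 monocyte surface gene that passed. Trem2, at 76.7 and 31.1 CPM in A and B and 26.8 and 20.2 CPM in F and I, and Id3, at 40.2 and 31.1 CPM in A and B and 0 and 8.07 CPM in F and I, were under the filter there. Cd63 (edgeR adjusted p = 0.0857) and Rgcc (edgeR adjusted p = 0.1498) did not pass. Irf8 stood at 489 and 510 CPM in A and B and 462 and 396 CPM in F and I in those cells, with a log2 fold change of 0.21 (edgeR adjusted p = 0.866), so its gap was under that among all members. The list medians were -0.38 for primary granule, -0.45 for granulocyte progenitor and 0.14 for monocyte surface genes.

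The genotype effect in members differed from that in Cebpe-high cells for a set of genes, among them Irf8, S100a8, S100a9 and Apoe. The interaction of class and genotype, with library as a block, passed for 135 of 3542 genes (3.81%), 102 higher (2.88%) and 33 lower (0.932%) in members, with edgeR at an adjusted p under 0.05. The Cebpe limit of the rule and its Ly6c2 minimum separate these classes, since the Cebpe-high class was taken without a Ly6c2 limit. Ly6c2 stood at 788 and 207 CPM in Cebpe-high cells of A and B and 340 and 277 CPM in those of F and I. The rule genes Cebpe and Ly6c2 are among the 33 and are given as description only. The Cebpe-high class held only 29 and 36 cells in A and B, against 503 and 280 in F and I, and without library A only 5 genes passed, without F 55 and without I 50. Median depths of Cebpe-high cells were 6180 and 5653 UMIs in A and B and 12280 and 16860.5 in F and I. The part of depth and of Ly6c2 level in the gaps below was not tested. Irf8 in Cebpe-high cells stood at 216 and 144 CPM in A and B and 29.7 and 33.9 CPM in F and I. That was 5.65-fold higher in the enhancer-deleted mean, whereas in members the ratio was 1.39. The difference of the effects was -1.91 on the log2 scale (SE 0.22, edgeR adjusted p = 2.29e-06, and 0.0655 without library A). Elane stood at 4655 and 3374 CPM in Cebpe-high cells of A and B and 7288 and 5651 CPM in those of F and I, with a difference of effects of -0.0028 (SE 0.073, edgeR adjusted p = 0.998, but 0.0193 without library B). S100a8 and S100a9 had wider gaps in members. S100a8 in Cebpe-high cells stood at 5262 and 3805 CPM in A and B and 5253 and 4562 CPM in F and I, so its gap in members was larger by 1.21 on the log2 scale (edgeR adjusted p = 2.47e-09, at most 0.0247 when any library was left out). S100a9 was at 1831 and 2338 CPM in Cebpe-high cells of A and B and 2573.5 and 1450.1 CPM in those of F and I, which overlapped (difference of effects -1.25, edgeR adjusted p = 0.000101, at most 0.0140 when any library was left out). Among list genes, 21 of 25 ribosomal protein genes passed higher in members by this test, and none lower, while within members 0 of the 25 had an unadjusted p under 0.05 between the genotypes.

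**Figure D5:**
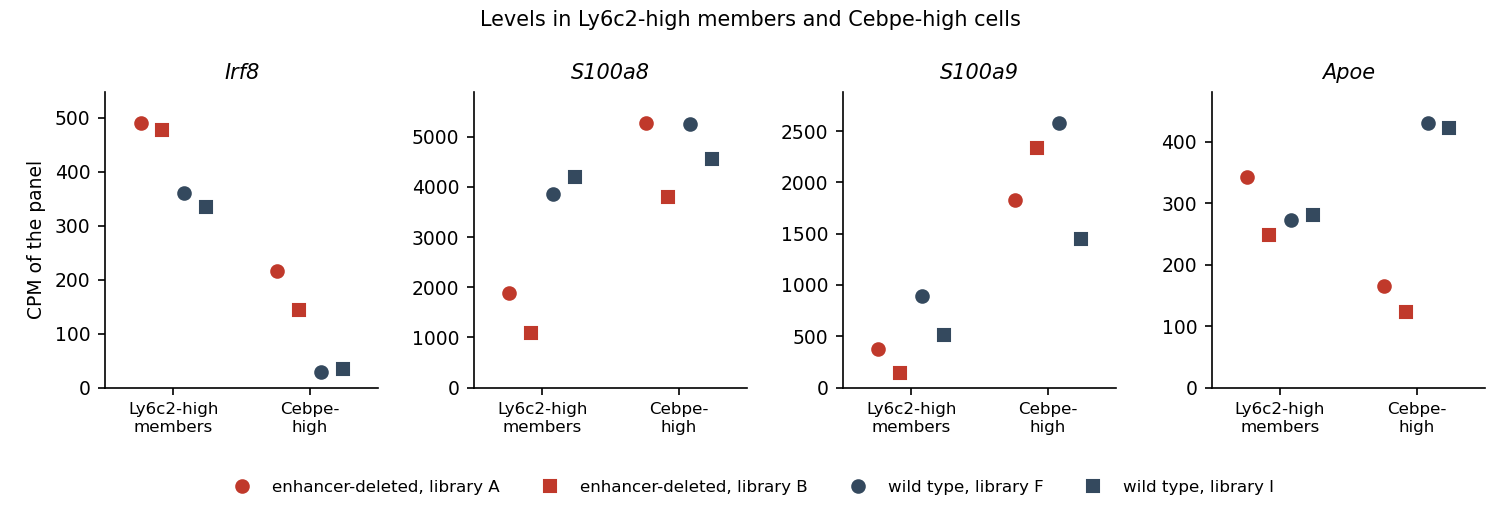
CPM of Irf8, S100a8, S100a9 and Apoe in Ly6c2-high members and in Cebpe-high cells, with 1 point per library and axes from 0. Irf8 stands at 216 and 144 CPM in Cebpe-high cells of A and B and at 29.7 and 33.9 CPM in those of F and I, while S100a8 and S100a9 differ between genotypes in members and overlap in Cebpe-high cells.

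Apoe, apolipoprotein E, stood at 343 and 249 CPM in members of A and B and 273 and 281 CPM in those of F and I, an overlap, but at 166 and 123 CPM in Cebpe-high cells of A and B and 430 and 423 CPM in those of F and I (difference of effects 1.78, SE 0.18, edgeR adjusted p = 1.09e-07, 0.0247 without library A). The other genes with the largest differences were Pxylp1, Grn, Sp140 and Tmem176b, higher in members by 1.56 to 3.05 on the log2 scale, and Hist1h1b, Abce1 and Endog, with differences of -1.66 to -1.22. None of these 7 passed without library A.

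Against all other cells of the series, the genotype gaps of neutrophil transcripts were smaller inside members. The interaction passed for 117 of 3619 genes (3.23%), 108 higher (2.98%) and 9 lower (0.249%) in members. The rule itself keeps cells with neutrophil transcripts out of members and leaves them in the other class, so smaller gaps in members are partly fixed by the choice of cells and are given as description. Cebpe-high cells in the other class numbered 29 and 36 in A and B and 503 and 280 in F and I, and the secondary granule genes summed to 4.27 and 4.10 CPM in other cells of A and B and 474 and 149 CPM in those of F and I. The rule genes Ly6c2, Cebpe and Camp are among the 108. S100a9 stood at 53.5 and 45.9 CPM in other cells of A and B and 1900.3 and 762 CPM in those of F and I, 26.8-fold lower in the enhancer-deleted mean, against 2.68-fold in members (difference of effects 3.27, SE 0.22, edgeR adjusted p = 1.23e-08). Elane stood at 472 and 394 CPM in other cells of A and B and 2657 and 1792 CPM in those of F and I (difference of effects 1.59, SE 0.06, edgeR adjusted p = 2.65e-12). By list, 9 of 13 primary granule and 9 of 16 granulocyte progenitor genes, the rule gene Cebpe among these, passed higher, and none passed lower. Irf8 was among the 9 lower, at 245 and 252 CPM in other cells of A and B and 131 and 127 CPM in those of F and I (difference of effects -0.41, SE 0.10, edgeR adjusted p = 0.0234, but 0.0925 without A and 0.113 without B). Id3 was the reverse, at 53.7 and 51.0 CPM in other cells of A and B and 42.8 and 33.4 CPM in those of F and I, so its gap in members was larger by 2.58 (SE 0.49, edgeR adjusted p = 0.00421, 0.181 without B). Without library A, 44 genes passed.

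The Csf1r-positive Ly6c2-low cells, the other cells of monocytic kind in the series, numbered 95 and 93 in A and B and only 20 and 11 in F and I, so no test was run against them. They held 223 and 169 CPM of Ccr2 in A and B and 239 and 339 CPM in F and I, and 53.7 and 71.1 CPM of Trem2 in A and B and 59.7 and 62.4 CPM in F and I. Members of every library had less Ccr2 than that class, while the Trem2 levels of members of A and B, 63.8 and 51.7 CPM, lay close to those of the class. Id3 stood at 248 and 193 CPM in Csf1r-positive cells of A and B and 333 and 241 CPM in those of F and I. Their Irf8 was at 461 and 445 CPM in A and B and 453 and 259 CPM in F and I, and Elane at 213 and 211 CPM in A and B and 269 and 80.2 CPM in F and I.

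Markers of other cell types were summed in members, and not all of these sums were below those of the other cells. The 4 measured secondary granule genes, which the rule bounds, summed to 31.2 and 19.7 CPM in A and B and 57.5 and 48.9 CPM in F and I. The 8 mast and basophil genes summed to 111 and 116 CPM in A and B and 122 and 130 CPM in F and I, with Cpa3 at 0 in A and B and 3.29 and 0.441 CPM in F and I. In other cells that sum was 120 and 118 CPM in A and B and 248 and 237 CPM in F and I. The 5 dendritic genes summed to 261 and 352 CPM in A and B and 221 and 207 CPM in F and I, most of it Bst2 and H2-DMa, with Cd74 at 0, 2.46, 0 and 0 CPM in A, B, F and I. In other cells the dendritic sum was 321 and 349 CPM in A and B and 263 and 248 CPM in F and I. The only liver macrophage gene measured, Hmox1, stood at 1.48 and 9.85 CPM in A and B and 1.52 and 2.64 CPM in F and I, and the 2 endothelial and stromal genes were at 0. Erythroid genes summed to 464 and 387 CPM in A and B and 447 and 2814 CPM in F and I. In A and B most of that sum was Apoe, at 343 and 249 CPM. Hbb-bs stood at 13.4 and 19.7 CPM in A and B and 27.9 and 1052 CPM in F and I, and the single globin-rich cell is in library I. The part of these genes in the results above was not tested beyond the fits without that cell and without possible doublets (8 cells). The 12 genes called without that cell were also called without possible doublets. That cell, with 886 Hba-a1 UMIs, is itself among the possible doublets, so the 2 fits are not separate checks.

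Gata2 itself was too low in these cells to compare library by library. Its UMIs numbered 0 and 0 in members of A and B and 15 and 9 in those of F and I. The wild-type levels were 3.80 and 3.97 CPM, and 0 UMIs in A and B allow up to 4.45 and 7.39 CPM (3 counts per library). Taken library by library, a difference was thus not detectable at this depth. In the other cells Gata2 stood at 7.80 and 6.87 CPM in A and B and 28.8 and 24.6 CPM in F and I.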

How the data were processed

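Single-cell transcripts were counted as UMIs by the authors, who deposited raw counts for 3624 genes in 9960 cells. Cell Ranger 2.0.2, Seurat 2.3.4 and mm10 are named in the submitters' processing notes. The members and gene lists were chosen with earlier results of these data known. UMIs were summed over members in each library, 405948 to 3947931 UMIs, and genotypes were compared with edgeR 4.0.16 in R 4.3.3 (quasi-likelihood test, TMM scaling, filterByExpr, Benjamini-Hochberg adjustment at 0.05, two-sided). Differences between classes were tested as the interaction of class and genotype with library as a block. DESeq2 1.42.0 and other filters and limits served as alternatives, and the code was tested on simulated data. The named genes were the 5 of smallest p in each direction, up to 3 per list, the markers and the 5 largest differences per interaction. Possible doublets (over 2 times the library median UMIs, or 3 or more UMIs of Hba-a1, Hba-a2 or Cpa3) were kept in the main result and 8 members were left out in an alternative. Intervals and floors cover counting error only. The design names separate embryos, but the deposited letters do not link libraries to sample numbers. Other genes given beside these were chosen after their values were seen.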

Additional observations from a re-analysis of the deposited data

Results flagged for a closer look

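In the genes below the genotype effect in Ly6c2-high cells differed from that in another class by edgeR's interaction test, at an adjusted p under 0.05. Each value is the effect in members minus the effect in the other class, on the log2 scale. Against the other cells the differences were 4.39 for Gm5483, 3.72 for BC100530, 3.27 for S100a9, 2.79 for Fcnb and 2.58 for Id3. They were -0.81 for Ydjc, -0.79 for Pfdn4, -0.75 for Ctcf, -0.58 for Nabp2 and -0.54 for Odc1. Without library A, only BC100530 (adjusted p = 0.00693), S100a9 (adjusted p = 0.000359) and Id3 (adjusted p = 0.0143) of these 10 passed in edgeR. Without library B, edgeR's adjusted p was 0.0607 for Fcnb, 0.112 for Gm5483, 0.0803 for Ctcf, 0.139 for Nabp2 and 0.181 for Id3, and without library F it was 0.166 for Ctcf and 0.132 for Nabp2. BC100530 and S100a9 passed whichever library was left out. The rule keeps neutrophil-type cells out of members, so the differences of neutrophil genes are partly fixed by it.

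Against Cebpe-high cells the differences were 3.05 for Pxylp1, 2.33 for Grn, 1.78 for Apoe, 1.71 for Sp140 and 1.56 for Tmem176b. They were -1.91 for Irf8, -1.66 for Hist1h1b, -1.29 for Abce1, -1.25 for S100a9 and -1.22 for Endog. Without library A, only Apoe (adjusted p = 0.0247) and S100a9 (adjusted p = 0.000169) of these 10 passed in edgeR, and these also passed without each of the other libraries. Irf8 and Hist1h1b failed only without A (adjusted p = 0.0655 and 0.2396 in edgeR). Abce1 also failed without F (adjusted p = 0.0551 in edgeR). Pxylp1, Sp140 and Endog failed whichever library was left out, with a lowest adjusted p in edgeR of 0.0650, 0.0659 and 0.0627. Grn passed only without I (adjusted p = 0.0390 in edgeR), and Tmem176b failed also without F (0.0601) and I (0.0742).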

How the results depend on the processing

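The share of Ly6c2-high cells kept its direction under every alternative run, from 1.70-fold to 3.58-fold lower in enhancer-deleted libraries. Within members, edgeR called 0 genes as given, with DESeq2 size factors and with no filter. The count was 26 with library totals, 19 with the DESeq2 Wald test, 18 with equal members per library, 23 with members thinned, 39 and 24 with Ly6c2 limits of 3 and 8 per 10000, 13 with Cebpe under 2, 37 without possible doublets and 61 with a term for Xist. Among alternatives added after the data were seen, it was 12 without the globin-rich cell, 39 without Xist and globin genes and 18 in members with 0 Cebpe UMIs. Leaving out 1 library gave 1 to 7 calls, and 0 to 6 without possible doublets as well. The interactions gave 44 to 150 calls against other cells and 5 to 157 against Cebpe-high cells when 1 library was left out (5 without A, 55 without F, 50 without I); the lone library of a genotype is then assumed to vary like the others. Fold changes (log2) of 4 genes changed sign. Btg1 went to -0.070 with 0 Cebpe UMIs. Ctsc went to 0.16 without library I, and 0.15 without doublets as well. F13a1 went to 0.030 without library A, and 0.027 without doublets as well. Klf4 went to -0.15 with Cebpe under 2, -0.10 without library F and -0.12 without doublets as well. The cause was not tested. Of 1328 values for 62 named genes within members, 1088 stayed on the same side of the threshold, 232 newly passed it and 8 changed sign. No paired analysis was possible because the library letters carry no replicate number. The interaction with Csf1r-positive cells was not run, as library I held 11 of them. Summed UMIs of members in A and B limit the low genes, 3 counts being 4.45 and 7.39 CPM.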
